A study of Mus musculus with 7 samples.

Results

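The 8 genes described here encode the proteases that mast cells store in their granules. They were taken from the count table by symbol and are the chymase genes Mcpt1, Mcpt2, Mcpt4, Mcpt9 and Cma1, the tryptase genes Tpsb2 and Tpsab1, and the carboxypeptidase gene Cpa3. All 8 were among the 34305 rows of the table, and 7 of them were among the 14808 genes with enough counts to be tested. Mcpt9 was the member that did not pass. Poly(A) RNA was sequenced from haematopoietic stem and progenitor cells (HSPCs) of mice, grown in culture. The groups were 3 libraries of cells overexpressing MN1-∆pQ (MN1pQdel in the sample names, MN1 without its polyglutamine stretch), 3 libraries of cells overexpressing MN1, a transcriptional co-regulator and leukaemia oncogene, and 1 library of untransduced cells (noTD). All were kept in medium with IL-3, IL-6 at 10 ng/mL and stem cell factor (SCF) at 20 ng/mL, and RNA was taken after 7 to 9 days. The labels leave out the day of each library, the mouse strain, the vector and its promoter. The untransduced library has an overexpression label of none, while its source label reads as for the transduced cells.

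Mast cells are tissue-resident cells of the blood lineage that carry the receptor for IgE, and IL-3 and SCF are the factors with which they are commonly grown from mouse marrow. Chymases and tryptases are serine proteases that cut after aromatic and after basic residues, and carboxypeptidase A3 trims the free C-terminal end of a peptide. They are held in the granule on the heparin chains of serglycin and are released together when the cell is activated. In mice, Mcpt1 and Mcpt2 mark mucosal mast cells, and Mcpt4, Cma1, Tpsb2 and Cpa3 mark those of connective tissue.

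The chymase genes lie together on chromosome 14, from 55941451 to 56062313 on GRCm38, a stretch of 120.9 kb that also holds genes outside this set. The tryptase genes lie on chromosome 17, from 25343245 to 25369098, within 25.9 kb. Cpa3 is the member on chromosome 3, from 20215620 to 20242181 on the minus strand. Since kallisto, the quantifier, assigns reads by 31-base words in its default use, the share of each gene's 31-base words found in any other gene of GENCODE M21 was counted. The share was 24.3% for Mcpt9, 12.2% for Mcpt4, 10.6% for Cma1, 6.71% for Mcpt1, 5.14% for Mcpt2, 0.557% for Tpsb2, 0.419% for Tpsab1 and 0% for Cpa3. The shared words of Mcpt9 and Mcpt4 were mostly those of Cma2, a chymase gene outside the set. The Cma1 words were shared with the predicted gene Gm48934. The separate chymase levels below are therefore less certain than those of Cpa3 and the tryptases. The coding sequences of Mcpt1 and Mcpt4 were 86.7% identical, those of Mcpt4 and Mcpt9 84.0% and those of Mcpt1 and Mcpt2 81.2%. Cma1 was between 60.5% and 63.6% identical to the other chymases, and Tpsb2 and Tpsab1 were 67.8% identical to each other. Stretches of 3 close pairs are shown because the 31-base words that lie within them belong to both genes. The shared stretches of Mcpt1 with Mcpt4 (46 bases) and with Mcpt9 (42 bases) are not printed. Each printed stretch is coding sequence from GENCODE M21 on GRCm38 and spans 1 intron. The shared stretch of Mcpt4 and Mcpt9 is 56 bases long, at chr14:56060046-56060496 and chr14:56026985-56027446, both on the minus strand. That of Mcpt1 and Mcpt2 is 49 bases long, at chr14:56018032-56018587 and chr14:56042187-56042727, both on the plus strand. That of Tpsb2 and Tpsab1 is 39 bases long, at chr17:25366888-25367046 on the plus strand and chr17:25344916-25345087 on the minus strand.
Mcpt4 and Mcpt9 shared stretch: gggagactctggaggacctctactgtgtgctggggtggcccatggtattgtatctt
Mcpt1 and Mcpt2 shared stretch: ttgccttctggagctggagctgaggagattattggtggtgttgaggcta
Tpsb2 and Tpsab1 shared stretch: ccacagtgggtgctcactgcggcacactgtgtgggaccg

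Because the members moved together across libraries, the 250 bases before the transcription start are shown for the 5 members that matched the RefSeq promoter table (GRCm38.p6). They are Mcpt1 at chr14:56017714-56017963 on the plus strand, and on the minus strand Mcpt4 at chr14:56062311-56062560, Mcpt9 at chr14:56030496-56030745, Cma1 at chr14:55944676-55944925 and Cpa3 at chr3:20242182-20242431. Capitals mark the GATA factor motif (TGATAA or one of its 3 forms with A as the first letter, G as the last, or both, on either strand) and the TATA box (TATAAA on the gene's strand).
Mcpt1 promoter: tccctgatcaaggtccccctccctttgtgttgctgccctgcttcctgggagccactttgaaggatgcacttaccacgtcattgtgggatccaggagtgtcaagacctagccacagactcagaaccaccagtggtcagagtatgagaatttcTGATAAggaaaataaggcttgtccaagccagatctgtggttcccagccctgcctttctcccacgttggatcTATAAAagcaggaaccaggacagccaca
Mcpt4 promoter: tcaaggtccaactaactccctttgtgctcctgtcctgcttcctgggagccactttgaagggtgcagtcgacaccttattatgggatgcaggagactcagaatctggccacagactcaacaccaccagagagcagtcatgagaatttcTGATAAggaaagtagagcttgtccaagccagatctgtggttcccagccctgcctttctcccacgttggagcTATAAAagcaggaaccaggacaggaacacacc
Mcpt9 promoter: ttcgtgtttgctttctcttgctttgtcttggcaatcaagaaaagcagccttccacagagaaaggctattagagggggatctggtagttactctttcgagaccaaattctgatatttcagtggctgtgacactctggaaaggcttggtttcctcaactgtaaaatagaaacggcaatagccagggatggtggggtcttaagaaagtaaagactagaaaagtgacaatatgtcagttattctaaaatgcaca
Cma1 promoter: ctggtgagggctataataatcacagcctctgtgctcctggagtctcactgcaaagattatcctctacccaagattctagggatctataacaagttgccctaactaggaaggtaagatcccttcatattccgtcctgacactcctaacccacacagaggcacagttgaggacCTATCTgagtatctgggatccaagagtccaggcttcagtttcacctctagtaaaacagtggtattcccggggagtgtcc
Cpa3 promoter: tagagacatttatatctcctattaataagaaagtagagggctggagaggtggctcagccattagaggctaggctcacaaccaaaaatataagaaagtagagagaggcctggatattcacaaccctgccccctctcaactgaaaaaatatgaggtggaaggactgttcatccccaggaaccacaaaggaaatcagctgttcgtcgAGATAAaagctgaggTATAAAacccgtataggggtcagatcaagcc
The Mcpt1 and Mcpt4 promoters were 81.5% identical, with a run of 53 identical bases, and the other pairs were between 45.0% and 50.9% identical. The GATA motif starts 99 bases before the start of Mcpt1, 103 before Mcpt4, 79 before Cma1, where it reads on the reverse strand, and 46 before Cpa3. It was not found in these bases of Mcpt9. Of all 32851 promoters in the table, 26.5% hold it. The TATA box starts 28 bases before the start of Mcpt1, 32 before Mcpt4 and 31 before Cpa3, and 7.59% of all promoters hold one. The E-box letters CANNTG, searched on both strands, occur in the Mcpt9 and Cma1 promoters and at 2 places in that of Cpa3, against 66.2% of all promoters. CATGTG, an E-box form to which MITF can bind, was in none of the 5 and in 12.3% of all promoters. A match is a description of the sequence and shows no binding.

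Library totals ran from 38210660 to 67728658 counts. Mn1 stood at 691, 404 and 728 CPM in the MN1-∆pQ libraries, at 314, 287 and 288 CPM in the MN1 libraries and at 33.6 CPM in the untransduced library, so every transduced library lay above the untransduced one. Its log2 fold change was 1.05 (SE 0.23, edgeR quasi-likelihood test with Benjamini-Hochberg adjustment, adjusted p = 0.0282). MN1-∆pQ replicate 2 stood apart from replicates 1 and 3 for all 8 proteases, and results with and without it are given below. It also stood apart over all tested genes, with a chi-square per gene of 317 against replicate 1 and 352 against replicate 3. Between replicates 1 and 3 the chi-square per gene was 75.4. CPM is the usual scaling of counts to a common library size, here adjusted by TMM, and a called gene is one with an edgeR adjusted p under 0.05. The SE of a log2 fold change is worked back from the edgeR test statistic. In bulk RNA, fewer cells of a type and less RNA per cell cannot be told apart, and the p-values measure only the spread between these samples.

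Of the 7 tested proteases, edgeR called 4 higher in MN1-∆pQ cells than in MN1 cells and 0 lower, and neither an unadjusted p under 0.05 nor DESeq2 gave a lower one. Over all tested genes 11.1% rose and 6.08% fell. The 4 were Mcpt1, Mcpt2, Mcpt4 and Tpsab1, and the same 4 had every MN1-∆pQ library above every MN1 library, as 21.7% of all tested genes did. Cma1, Tpsb2 and Cpa3 had adjusted p-values between 0.0739 and 0.101. With the replicate number as a block, a fit that sets same-numbered libraries against each other, 7 of 7 were called, against 17% of all genes. The median log2 fold change of the tested members was 5.31, against 0.01 over all tested genes.

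Mcpt1, which encodes a chymase of intestinal mast cells, had 140, 2.41 and 90.8 CPM in the MN1-∆pQ libraries, against 0.805, 0.324 and 0.552 CPM in the MN1 libraries, with 51.8 CPM in the untransduced one. Replicates 1 and 3 of MN1-∆pQ were high and replicate 2 was low, yet still above every MN1 library. The log2 fold change was 7.13 (SE 1.46, edgeR adjusted p = 0.0241).

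Mcpt2, its neighbour in the cluster and a second mucosal mast cell gene, had 1937, 26.7 and 1505 CPM in the MN1-∆pQ libraries. It had 4.95, 3.54 and 3.35 CPM in the MN1 libraries and 1218 CPM in the untransduced library. The 3 MN1 libraries were close to each other, and the groups did not overlap. Its log2 fold change of 8.21 (SE 1.54, edgeR adjusted p = 0.0191) was the highest among the members.

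Mcpt4, which encodes the main chymase of mouse connective tissue mast cells, had 564, 12.5 and 686 CPM in the MN1-∆pQ libraries, against 7.90, 2.11 and 7.17 CPM in the MN1 libraries. The untransduced library had 789 CPM, above all 6 others. MN1-∆pQ replicate 2 lay above the MN1 libraries by a small margin. The log2 fold change was 6.22 (SE 1.43, edgeR adjusted p = 0.0319).

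Cma1, which encodes a chymase that in the mouse has the activity of an elastase, had 1102, 59.4 and 2094 CPM in the MN1-∆pQ libraries. It had 91.1, 18.3 and 118 CPM in the MN1 libraries and 1701 CPM in the untransduced library. MN1-∆pQ replicate 2 lay inside the MN1 range, so the groups overlapped. The log2 fold change was 3.86 (SE 1.25) and was not called (edgeR adjusted p = 0.0739), while with the replicate block it was 3.19 and called (edgeR adjusted p = 0.0217).

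Mcpt9, which in mice is known from mast cells of the uterus, was close to absent. It had 29, 1 and 21 counts in the MN1-∆pQ libraries, 2, 1 and 5 counts in the MN1 libraries and 17 counts in the untransduced library. Summed over libraries these were 51 and 8 counts, a ratio per total count of 4.85 with an exact 95% interval from 2.29 to 11.8 that covers counting error only. Without the filter on low counts its log2 fold change was 2.43 and was not called (edgeR adjusted p = 0.152). Its words shared with Cma2 make even these counts uncertain. Cma2 had 10.1, 0.880 and 12.2 CPM in the MN1-∆pQ libraries, 1.88, 0.718 and 2.08 CPM in the MN1 libraries and 10.8 CPM in the untransduced library, high and low in the same libraries as Mcpt9.

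Tpsb2, which encodes the main tryptase of mouse mast cells, had 1080, 69.4 and 1481 CPM in the MN1-∆pQ libraries, against 111, 14.9 and 104 CPM in the MN1 libraries and 1757 CPM in the untransduced one. As for Cma1, MN1-∆pQ replicate 2 lay between the MN1 libraries. The log2 fold change was 3.53 (SE 1.17) and was not called (edgeR adjusted p = 0.0791), while with the replicate block it was 3.13 and called (edgeR adjusted p = 0.0114).

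Tpsab1, the second tryptase gene, had 33.2, 3.97 and 107 CPM in the MN1-∆pQ libraries, against 1.20, 0.394 and 2.08 CPM in the MN1 libraries and 82.9 CPM in the untransduced one. The groups did not overlap, and MN1-∆pQ replicates 1 and 3 differed more from each other than they did for Tpsb2. Its log2 fold change was 5.31 (SE 1.25, edgeR adjusted p = 0.0342). The RefSeq gene table (GRCm38.p6) lists Tpsab1 as a transcribed pseudogene and GENCODE M21 as protein coding, and its counts are a measure of RNA alone.

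Cpa3, which encodes carboxypeptidase A3, was among the most abundant genes of every library. It had 7540, 1710 and 8850 CPM in the MN1-∆pQ libraries, 2473, 945 and 2223 CPM in the MN1 libraries and 7079 CPM in the untransduced library. By CPM it ranked 6, 37 and 2 among all genes in the MN1-∆pQ libraries, 16, 90 and 14 in the MN1 libraries and 7 in the untransduced one. The log2 fold change was 1.70 (SE 0.63), the smallest among the tested members, and was not called (edgeR adjusted p = 0.101). With the replicate block it was 1.50 and called (edgeR adjusted p = 0.0197).

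**Figure D1:**
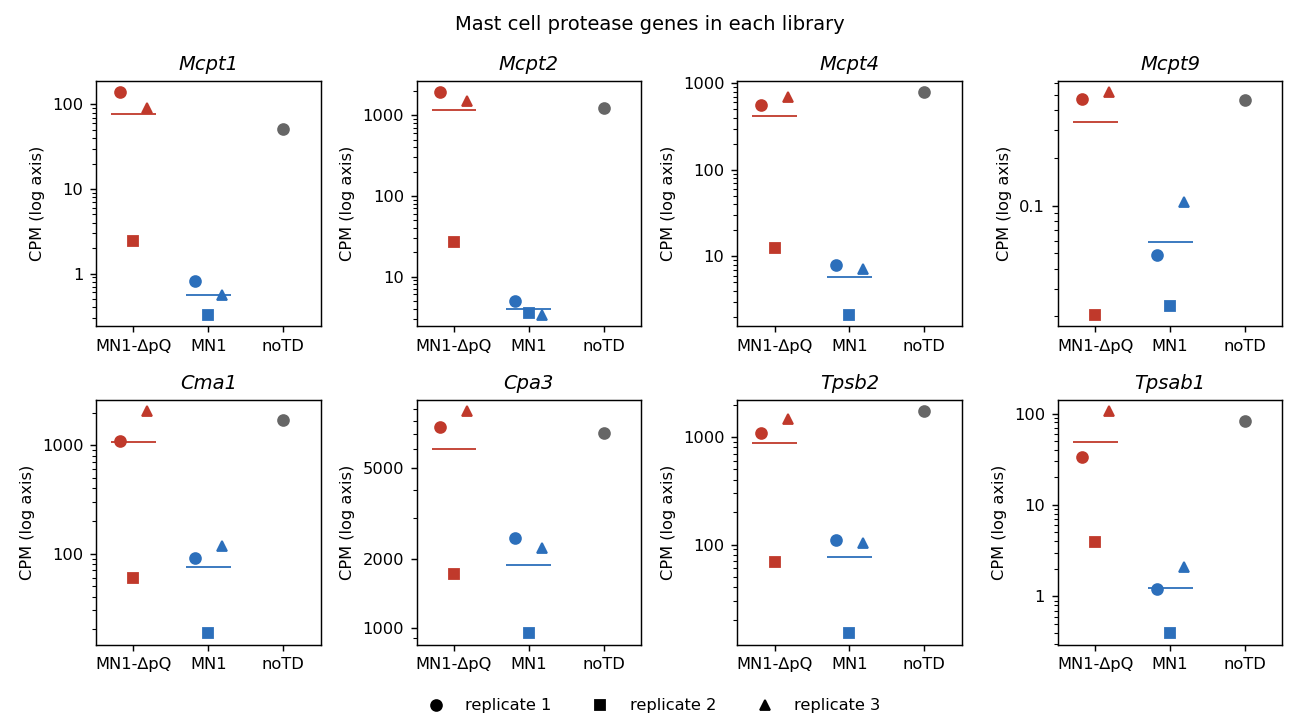
CPM of each protease gene (log axis) in the MN1-∆pQ, MN1 and noTD libraries, with 1 point per library, the shape giving the replicate number and the line the group mean. MN1-∆pQ replicates 1 and 3 sit near the untransduced library, and MN1-∆pQ replicate 2 sits near the MN1 libraries for all 8 genes.

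As means over 3 libraries with SD, Mcpt1 was 77.6 ± 69.6 CPM in MN1-∆pQ cells and 0.560 ± 0.240 CPM in MN1 cells. Mcpt2 was 1156 ± 1002 and Mcpt4 421 ± 359 CPM in MN1-∆pQ cells, against 3.95 ± 0.874 and 5.73 ± 3.16 CPM in MN1 cells. In each of these the SD of the MN1-∆pQ group was close to its mean. Within the MN1-∆pQ group Cpa3 varied least among the members relative to its mean. It was at 6033 ± 3801 CPM in MN1-∆pQ cells and 1880 ± 819 CPM in MN1 cells.

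MN1-∆pQ replicate 2 had 20.9% of the mean of replicates 1 and 3 for Cpa3, 5.64% for Tpsab1, 5.42% for Tpsb2 and 3.72% for Cma1. For Mcpt4, Mcpt1 and Mcpt2 it had 1.99%, 2.10% and 1.55%. The same number was low in the MN1 group, where replicate 2 was the lowest of the 3 libraries for 6 of the 7 tested members, and Mcpt2, with its lowest value in replicate 3, was the exception. Same-numbered libraries were therefore also set against each other. All 7 tested members were higher in the MN1-∆pQ library in all 3 pairs, as were 33.7% of all tested genes. The ratio of CPM, MN1-∆pQ over MN1, was 391, 7.53 and 449 for Mcpt2 in pairs 1, 2 and 3. It was 71.4, 5.92 and 95.6 for Mcpt4 and 27.8, 10.1 and 51.7 for Tpsab1. It was 12.1, 3.25 and 17.7 for Cma1, 9.76, 4.65 and 14.2 for Tpsb2 and 3.05, 1.81 and 3.98 for Cpa3. Pair 2 had the smallest ratio for every member.

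The count of called members turned on single libraries. Without MN1-∆pQ replicate 2, the 7 members tested with all 6 libraries were all called higher, against 21.3% of all genes. Without both libraries of replicate 2 the 7 were again called, against 17.4%. In both fits Mcpt9 passed the filter only through the MN1-∆pQ libraries, where it was high, and is not counted. Without MN1-∆pQ replicate 3, Mcpt2 alone was called, against 4.51% of all genes. Without MN1-∆pQ replicate 1 edgeR called 0 of the members, against 2.73% of all genes, with 6 at an unadjusted p under 0.05. Without MN1 replicate 1, 2 or 3 it also called 0, against 2.87%, 2.67% and 2.49%, with 7, 6 and 6 of the 7 at an unadjusted p under 0.05. The share of all genes at such a p in the leave-out fits is not given. All 7 tested members had an unadjusted p under 0.05 with all 6 libraries, as did 37.7% of all tested genes, and DESeq2 called 7 of 7, against 16.8% of all genes. Across the fits that left out 1 library the log2 fold change of each member stayed above 0, between 7.60 and 8.76 for Mcpt2 and between 1.31 and 2.12 for Cpa3.

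**Figure D2:**
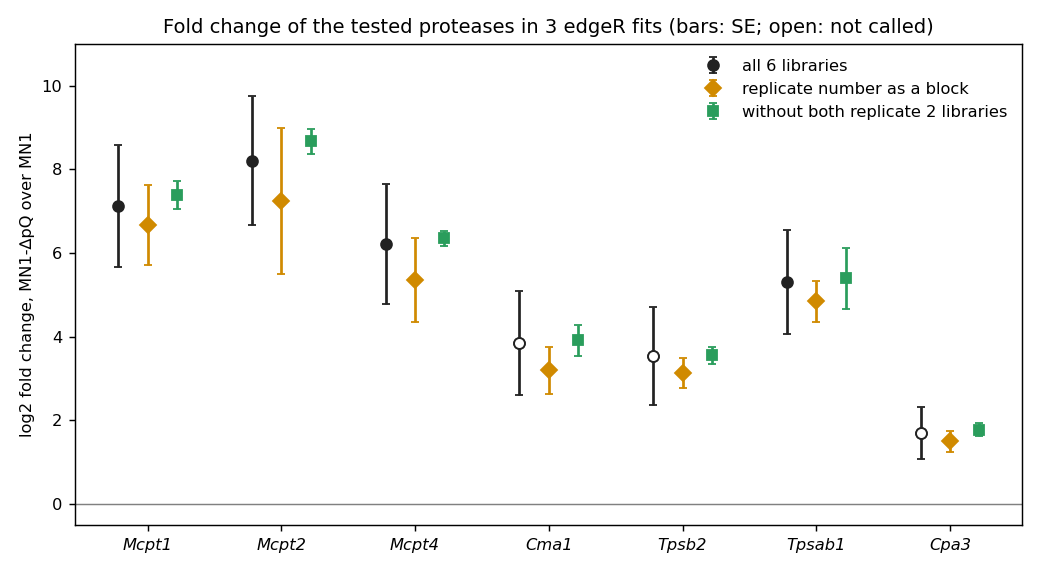
Log2 fold change of MN1-∆pQ over MN1 (vertical axis) for the 7 tested proteases in 3 edgeR fits, with bars for the SE and open symbols where the adjusted p was not under 0.05. The order of the genes is the same in each fit, with Mcpt2 highest and Cpa3 lowest, and for all but Tpsab1 the bars are shortest without both replicate 2 libraries.

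Since close copies can share reads, the counts of each family were also added up and tested as 1 row. The 5 chymases together had 3743, 101 and 4375 CPM in the MN1-∆pQ libraries, 105, 24.3 and 130 CPM in the MN1 libraries and 3760 CPM in the untransduced library. This sum does not depend on how reads were divided among the 5 genes. It does not settle reads shared with genes outside it, Cma2 and Gm48934 among them. The sum of MN1-∆pQ replicate 2 fell inside the MN1 range. The log2 fold change of the summed chymases was 5.01 (SE 1.35) and was called (edgeR adjusted p = 0.0479). In fits that left out 1 library it was called only without MN1-∆pQ replicate 2. The 2 tryptases together had 1114, 73.4 and 1589 CPM in the MN1-∆pQ libraries, 112, 15.3 and 107 CPM in the MN1 libraries and 1840 CPM in the untransduced library. Their log2 fold change was 3.59 (SE 1.18, edgeR adjusted p = 0.0762) and was not called, while with the replicate block it was 3.18 and called (edgeR adjusted p = 0.0113).

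The members differed in how much of the protease RNA they made up. Together they took 1.13%, 0.187% and 1.39% of all counts in the MN1-∆pQ libraries, 0.289%, 0.106% and 0.268% in the MN1 libraries and 1.20% in the untransduced library. Cpa3 made up 60.8%, 90.7% and 59.7% of the member counts in the MN1-∆pQ libraries, 91.9%, 96.0% and 90.4% in the MN1 libraries and 55.8% in the untransduced one. Within the chymases, Cma1 took 29.4%, 58.9% and 47.8% of the counts in the MN1-∆pQ libraries, against 86.9%, 75.3% and 91.4% in the MN1 libraries and 45.2% in the untransduced library. Mcpt2 took 51.7%, 26.4% and 34.4% of the chymase counts in the MN1-∆pQ libraries, against 4.72%, 14.6% and 2.59% in the MN1 libraries and 32.4% in the untransduced library. The shares did not overlap between MN1-∆pQ and MN1 for either gene. MN1-∆pQ replicate 2, whose chymase total was in the MN1 range, kept Mcpt2 and Cma1 shares between those of the other MN1-∆pQ libraries and the MN1 libraries. Tpsab1 made up 5.05 ± 1.92% of the tryptase counts in MN1-∆pQ cells, 1.86 ± 0.754% in MN1 cells (SD, n = 3 each) and 4.51% in the untransduced library. The exact 95% intervals of these shares were at most 5.30 percentage points wide for the chymases and 2.58 for the tryptases, for counting error only.

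**Figure D3:**
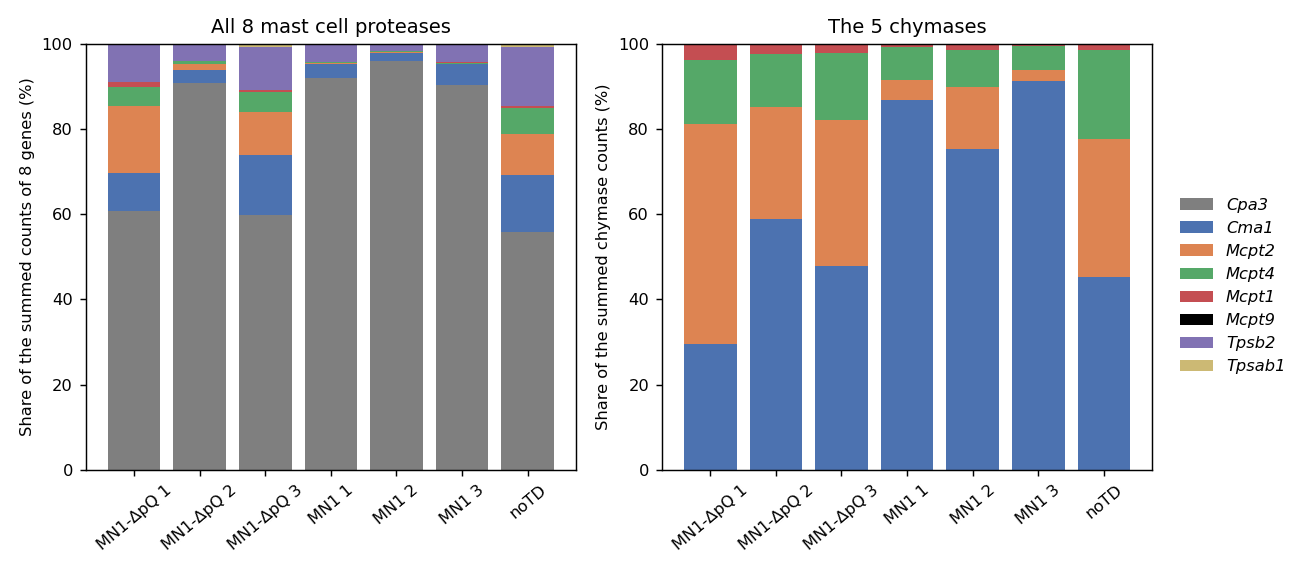
Share of each gene in the summed counts of all 8 proteases (left) and of the 5 chymases (right), in percent, with 1 bar per library. Cpa3 fills over 90% of the bar in MN1-∆pQ replicate 2 and in the MN1 libraries, and the Mcpt2 block of the chymases is tallest in MN1-∆pQ replicate 1, at 51.7%.

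To compare levels between genes, CPM was divided by transcript length in kb. In the untransduced library Cpa3 stood at 4886 CPM per kb, Tpsb2 at 1598, Cma1 at 1572, Mcpt2 at 1148, Mcpt4 at 712, Tpsab1 at 53.8, Mcpt1 at 51.1 and Mcpt9 at 0.233. Tpsb2 and Cma1 were close neighbours in that order, as were Tpsab1 and Mcpt1. In the MN1 libraries Cpa3 stood at 1707, 652 and 1534 CPM per kb, followed by Tpsb2 and Cma1, which did not separate across the 3 libraries. Tpsb2 had 101, 13.6 and 95.0 CPM per kb there and Cma1 84.2, 16.9 and 109. Mcpt2, next after Cma1 in the untransduced library, had 4.67, 3.34 and 3.16 CPM per kb in the MN1 libraries, below Mcpt4 in replicates 1 and 3.

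The untransduced library is 1 sample, so the transduced groups were set against it without a test. In MN1 cells all 7 tested members lay at least 4-fold below it by the group mean of log2 CPM, as 4.82% of all tested genes did. Mcpt9, not tested, also lay below, with 2, 1 and 5 counts in the MN1 libraries against 17. Its log2 difference depends on the prior count, being -2.38 with a prior of 2 and -2.94 with 0.5. The mean CPM of the MN1 libraries was 0.324% of the untransduced level for Mcpt2, 0.725% for Mcpt4, 1.08% for Mcpt1 and 1.47% for Tpsab1. It was 4.36% for Tpsb2, 4.47% for Cma1, 12.7% for Mcpt9 and 26.6% for Cpa3. Cpa3 passed by a narrow margin, at a log2 difference of -2.03, and did not pass when scaled by library totals. In MN1-∆pQ cells 1 member, Mcpt4, lay at least 4-fold below, at a log2 difference of -2.22, as 0.425% of all tested genes did. That mean joined unlike libraries. MN1-∆pQ replicates 1 and 3 lay between 40.1% and 269% of the untransduced level for the 8 genes, and replicate 2 lay between 1.58% and 24.2%. The MN1-∆pQ libraries and the MN1 libraries are set here against the same untransduced library.

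**Figure D4:**
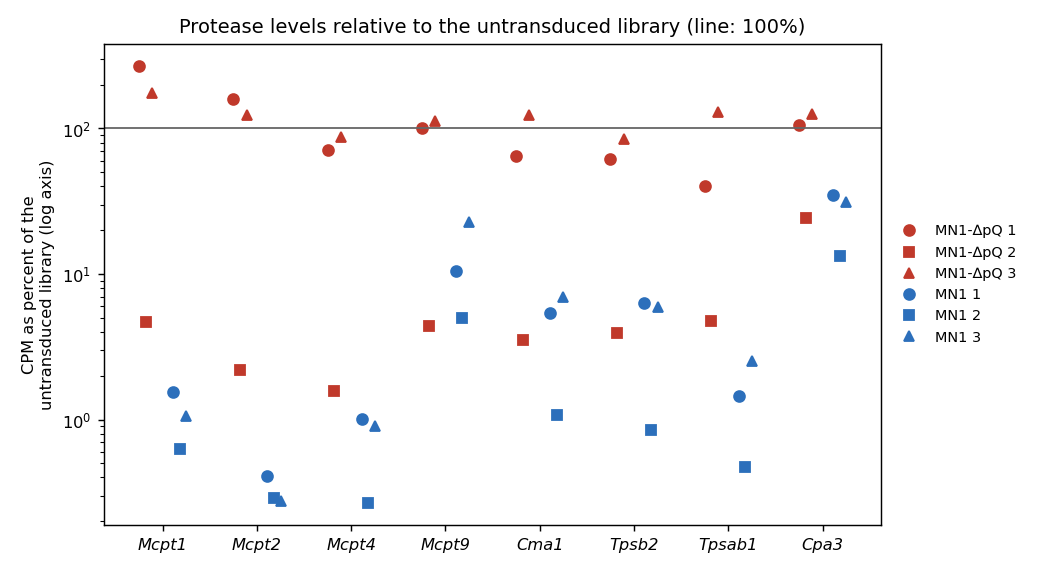
CPM of each protease as a percentage of the untransduced library (log axis; the line is 100%), with 1 point per transduced library and its shape for the replicate number. MN1-∆pQ replicates 1 and 3 lie on both sides of the line, the MN1 libraries lie below it for every gene, and Cpa3 is the member that stays closest to it in MN1 cells.

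Genes that mast cells need to store, process and release these proteases were read from lists chosen with earlier results of these data known. Over all tested genes 11.1% rose and 6.08% fell, and 17% rose with the replicate block. In the fits that left out 1 library other than MN1-∆pQ replicate 2, between 2.49% and 4.51% rose. The counts of each list below stand beside these shares. Among 10 receptor genes of mast cells, 3 rose and 0 fell, with a median log2 fold change of 1.34, and 7 rose with the replicate block. Without MN1-∆pQ replicate 2 edgeR called 7 of them higher, against 21.3% of all genes. With any 1 library other than MN1-∆pQ replicate 2 left out, edgeR called 0 of them, with between 3 and 6 at an unadjusted p under 0.05. With all 6 libraries 37.7% of all tested genes had such a p, and the share in the leave-out fits is not given. Fcer1a, which encodes the IgE-binding chain of the high-affinity receptor, had 1095, 26.2 and 1156 CPM in the MN1-∆pQ libraries, against 16.9, 4.47 and 6.68 CPM in the MN1 libraries and 1170 CPM in the untransduced one. It followed the chymases across libraries, and its log2 fold change was 6.36 (SE 1.41, edgeR adjusted p = 0.0296). The genes of its beta and gamma chains, Ms4a2 and Fcer1g, changed by 2.38 and 1.65 on the log2 scale (edgeR adjusted p = 0.0378 and 0.0265). Kit, the SCF receptor gene, named here after its values were seen, had 531, 248 and 875 CPM in the MN1-∆pQ libraries, against 311, 237 and 431 CPM in the MN1 libraries (edgeR adjusted p = 0.244). Il1rl1, Adora3, Il3ra and Ptger3, also named after their values were seen, changed by 2.04, 1.71, 1.02 and 0.67 on the log2 scale. They were not called with all 6 libraries and were called with the replicate block. Mrgprb1 and Mrgprb2, receptors of mature mast cells also picked out after the fact, reached at most 1.44 CPM in any library, and Enpp3, another mast cell marker, at most 0.114 CPM.

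Of 4 genes for amine synthesis and storage, 1 rose without the replicate block. With it edgeR called 0, although 3 had an unadjusted p under 0.05, and DESeq2 called 2. That gene, Ddc, which encodes the decarboxylase that makes serotonin and dopamine, had 7.17, 0.573 and 11.1 CPM in the MN1-∆pQ libraries, against 0.317, 0.324 and 0.297 CPM in the MN1 libraries (edgeR adjusted p = 0.0330, and 0.0530 with the block). Hdc, which makes histamine and was named after its values were seen, had 598, 761 and 636 CPM in the MN1-∆pQ libraries, against 769, 426 and 690 CPM in the MN1 libraries. Its ranges overlapped throughout, its log2 fold change being 0.09 (SE 0.23, edgeR adjusted p = 0.786), and MN1-∆pQ replicate 2 was the highest of its group. Tph1 and Slc18a2, also named after their values were seen, changed by 3.27 and 1.21 on the log2 scale. They were not called with all 6 libraries (edgeR adjusted p = 0.0916 and 0.189) or with the block.

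Of 10 genes for serglycin and heparin synthesis, 1 rose and 1 fell, 4 rose and 1 fell with the replicate block, and the median log2 fold change was 0.26. The 1 of 10 that rose is near the 11.1% of all tested genes. Srgn, the serglycin core protein on which the proteases are stored, had 2395, 923 and 2291 CPM in the MN1-∆pQ libraries, against 897, 634 and 710 CPM in the MN1 libraries. Its log2 fold change was 1.34 (SE 0.36, edgeR adjusted p = 0.0491). Ext1, which extends the heparan chain, fell by 1.20 on the log2 scale (edgeR adjusted p = 0.0244). Of 5 cathepsin genes 1 rose. It was Ctse, which changed by 3.12 on the log2 scale (edgeR adjusted p = 0.0206). Ctsc, the cathepsin that activates many granule serine proteases and was named after its values were seen, changed by -0.41 (SE 0.25, edgeR adjusted p = 0.268).

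Of 12 transcription factor genes known from mast cells 3 rose and 0 fell, against 11.1% and 6.08% of all tested genes. With the replicate block 5 rose, against 17% of all genes. Mitf, which is needed for mast cell protease genes in mice, had 34.6, 12.4 and 41.7 CPM in the MN1-∆pQ libraries, against 10.6, 6.46 and 9.95 CPM in the MN1 libraries and 40.6 CPM in the untransduced one. The groups did not overlap, and the log2 fold change was 1.73 (SE 0.45, edgeR adjusted p = 0.0450). It was not called with scaling by library totals (edgeR adjusted p = 0.0510), and in fits that left out 1 library it was called only without MN1-∆pQ replicate 2. Runx1 and Spi1 changed by 1.49 and 0.98 (edgeR adjusted p = 0.0258 and 0.0122). Gata2 and Gata1, named after their values were seen for the motif above, changed by 0.96 and 1.17 on the log2 scale. They were not called without the replicate block (edgeR adjusted p = 0.148 and 0.125). With the block both were called (edgeR adjusted p = 0.0366 and 0.0245).

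Genes beside the members moved unequally. Of 10 other genes of the chymase locus, 5 were tested and 2 rose, 1 of them also with the replicate block. Mcpt8, a basophil protease gene, changed by 2.15 (SE 0.42, edgeR adjusted p = 0.0212), with 1083, 662 and 1199 CPM in the MN1-∆pQ libraries, against 315, 109 and 248 CPM in the MN1 libraries. Gzmb, which encodes granzyme B, changed by 4.56 (SE 1.21, edgeR adjusted p = 0.0464, and 0.0757 with the block). Ctsg, cathepsin G of the same locus, named after its values were seen, had 576, 1018 and 505 CPM in the MN1-∆pQ libraries, against 623, 700 and 458 CPM in the MN1 libraries. MN1-∆pQ replicate 2, the lowest of its group for the tested proteases, was the highest for Ctsg, whose log2 fold change was 0.24 (SE 0.29, edgeR adjusted p = 0.568). Of 5 other genes of the tryptase family, 3 were tested. Prss34, a basophil protease gene beside the tryptases, rose by 4.61 (SE 0.68, edgeR adjusted p = 0.00985), and Tpsg1, the transmembrane tryptase gene, by 3.34 (SE 0.86, edgeR adjusted p = 0.0433). Prss34 lost its call without MN1 replicate 3, and Tpsg1 with any 1 library other than MN1-∆pQ replicate 2 left out. The other, Prss28, passed the filter only through the MN1-∆pQ libraries and is not counted. It had 2.28, 0.286 and 1.91 CPM in the MN1-∆pQ libraries and at most 0.0424 CPM in the MN1 libraries. Of 3 neighbours of Cpa3, Gyg and Hps3 rose, by 0.70 and 0.69 on the log2 scale (edgeR adjusted p = 0.0467 and 0.0225). Without MN1-∆pQ replicate 2, edgeR called 3 amine, 4 serglycin and heparin, 2 cathepsin and 2 Cpa3 neighbour genes higher, against 21.3% of all genes. In that fit 2 serglycin and heparin genes and 1 cathepsin gene were lower. That fit also called 5 transcription factors higher and 2 lower, and 3 chymase locus genes higher. With any 1 other library left out, edgeR called 0 genes of the amine, serglycin and heparin, cathepsin and Cpa3 neighbour lists. Between 1 and 3 in each were higher at an unadjusted p under 0.05. In the same fits it called between 0 and 1 of the transcription factors and of the chymase locus genes. With all 6 libraries 37.7% of all tested genes had an unadjusted p under 0.05, and the share in the leave-out fits is not given. Srgn and Gyg also lost their calls with scaling by library totals.

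**Figure D5:**
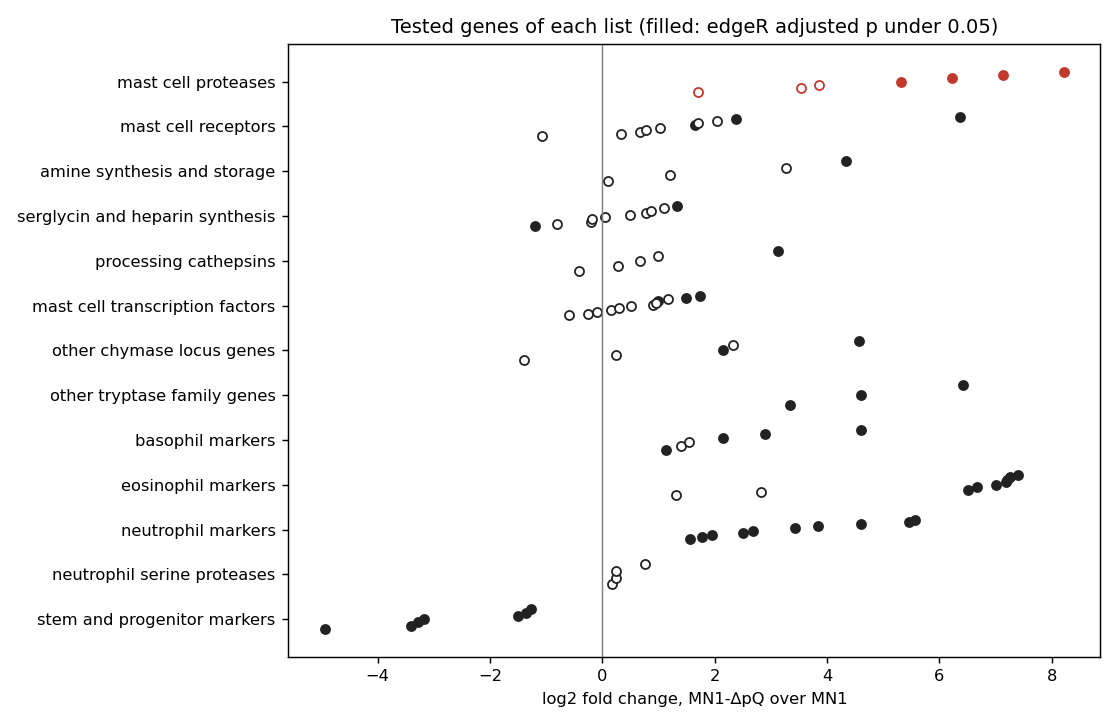
Log2 fold change of MN1-∆pQ over MN1 (horizontal axis) for the tested genes of each list, with 1 point per gene, filled where the edgeR adjusted p was under 0.05. The proteases lie between 1.70 and 8.21, the stem and progenitor markers all lie below 0, and the neutrophil serine proteases lie between 0.17 and 0.75.

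Markers of other blood cells moved in the same libraries. The shares of all tested genes were again 11.1% higher and 6.08% lower, and 17% higher with the replicate block. Of 14 tested mast cell markers other than proteases 4 rose and 0 fell, 8 rose with the replicate block and 2 with scaling by library totals. Without MN1-∆pQ replicate 2 edgeR called 10 of the 14 higher, against 21.3% of all genes. With any 1 library other than MN1-∆pQ replicate 2 left out, edgeR called 0 of these markers, with between 4 and 7 at an unadjusted p under 0.05. With all 6 libraries 37.7% of all tested genes had such a p, and the share in the leave-out fits is not given. The summed CPM of these markers was 8811, 3138 and 11611 in the MN1-∆pQ libraries, 3543, 2001 and 3247 in the MN1 libraries and 9239 in the untransduced library. Of 6 basophil markers 4 rose, with sums of 2002, 935 and 2253 CPM in the MN1-∆pQ libraries, 412, 161 and 334 CPM in the MN1 libraries and 2069 CPM in the untransduced one. Of 9 eosinophil markers 7 rose, with sums of 3401, 235 and 3647 CPM in the MN1-∆pQ libraries, 21.4, 13.3 and 21.6 CPM in the MN1 libraries and 3802 CPM in the untransduced one. These sums were low in MN1-∆pQ replicate 2, as the proteases were. Alox15, 1 of the 7 eosinophil genes, passed the filter only through the MN1-∆pQ libraries. It had 0.293, 0.185 and 0.573 CPM in the MN1 libraries. All 10 neutrophil markers rose, and by their sums MN1-∆pQ replicate 2 stood with its group. The sums were 36730, 29950 and 26367 CPM in the MN1-∆pQ libraries, 7873, 6358 and 4286 CPM in the MN1 libraries and 38118 CPM in the untransduced one. Single neutrophil genes differed in this. Replicate 2 was low for Ly6g (116, 17.6 and 67.9 CPM in the MN1-∆pQ libraries) and Mmp9 (634, 128 and 367 CPM). For Camp (327, 438 and 210 CPM) it was the highest of its group. Of 4 neutrophil serine protease genes, Elane and Prtn3 among them, edgeR called 0, as did DESeq2, with 0 at an unadjusted p under 0.05 in either, and their sums were 1122, 3288 and 748 CPM in the MN1-∆pQ libraries, 1577, 1833 and 971 CPM in the MN1 libraries and 1058 CPM in the untransduced one. Of 10 monocyte and macrophage markers 6 rose, among them C1qa, which passed the filter only through the MN1-∆pQ libraries. Of 6 erythroid markers 1 rose, or 2 with the replicate block. Of 6 megakaryocyte markers edgeR called 0 with all 6 libraries, with 1 at an unadjusted p under 0.05, and 2 with the replicate block, and DESeq2 called 1. Of 6 T and NK cell markers 1, Nkg7, was tested, and with all 6 libraries neither edgeR nor DESeq2 called it. It was called lower without MN1-∆pQ replicate 2 and without both libraries of replicate 2, where its log2 fold change was -1.07 (edgeR adjusted p = 0.0372). All 7 stem and progenitor markers fell, with sums of 495, 576 and 361 CPM in the MN1-∆pQ libraries, 1342, 1480 and 1655 CPM in the MN1 libraries and 481 CPM in the untransduced library. Among them Flt3 had 1.29, 7.00 and 0.248 CPM in the MN1-∆pQ libraries, 64.4, 111 and 87.3 CPM in the MN1 libraries and 1.62 CPM in the untransduced one, all of them labelled as HSPCs. With any 1 library other than MN1-∆pQ replicate 2 left out, edgeR called between 9 and 10 neutrophil, 1 and 6 eosinophil, 0 and 3 basophil and 0 and 3 monocyte markers higher, and between 1 and 4 stem and progenitor markers lower. Without MN1-∆pQ replicate 2 edgeR called 10 neutrophil, 9 eosinophil, 6 basophil and 7 monocyte markers higher, against 21.3% of all genes. In that fit 7 stem and progenitor and 2 monocyte markers were called lower. The part of these cell types in the protease levels was not tested.

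The 10 genes whose log2 CPM across the 7 libraries was most like the mean profile of the tested members were P2ry14, Itgb7, Ssh3, Sytl3, Plgrkt, Mitf, Serpinb6a, Anpep, Cacna1h and Hs6st2. Their Pearson correlations with the profile ran from 0.9996 for P2ry14 to 0.998 for Hs6st2. The 7 libraries share their groups and depths, and 779 of 10228 genes compared reached 0.95, so a high value is common here. The members themselves correlated with the profile between 0.971 for Mcpt2 and 0.998 for Mcpt4. P2ry14, which encodes a receptor for UDP-glucose, had 85.8, 25.4 and 101 CPM in the MN1-∆pQ libraries, against 22.6, 12.4 and 21.4 CPM in the MN1 libraries and 91.8 CPM in the untransduced one. Cacna1h, a calcium channel gene on the minus strand, has its nearer end 5.19 kb from Tpsb2 and overlaps Tpsg1 by 158 bases on the other strand. Whether strand was used in counting is unknown, so reads in that overlap may be uncertain. Cacna1h changed by 3.65 on the log2 scale. Hs6st2, a heparan sulfate sulfotransferase gene, changed by 3.82 and Anpep, which encodes aminopeptidase N, by 3.51. Since these 10 genes were picked for likeness to a profile that differs between the groups, their changes follow from the choice. Their p-values are therefore no separate result. Of the 10, Itgb7, Ssh3, Plgrkt and Serpinb6a were not called (edgeR adjusted p = 0.0525, 0.0600, 0.0605 and 0.0504). Cacna1h, Hs6st2 and Anpep kept their calls in 1 of the 6 fits that left out 1 library.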

How the data were processed

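Poly(A) RNA of 7 libraries was read from both ends at 150 bases, per the labels' protocols. The authors deposited estimated counts per gene symbol, not normalised, and 32.5% of the values were not whole (tolerance 1e-06). The submitters' processing notes name kallisto, DESeq2 and the GRCm38 build. The versions, the index and whether strand was used are not given there or in the labels. In 26 rows the symbol had become a calendar date. These held 0.172% of counts and stayed in.

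Counts were rounded, filtered with filterByExpr and scaled by TMM, and MN1-∆pQ was compared with MN1 by the quasi-likelihood test of edgeR 4.0.16 in R 4.3.3, group being the only term. Adjusted p-values are Benjamini-Hochberg over all tested genes, with a threshold of 0.05. The SE is the size of the log2 fold change divided by the square root of the F statistic of the test. DESeq2 (version 1.42.0) was an alternative. Groups and replicate numbers came from the sample titles. Same-numbered libraries deviated together from their group means (correlations of 0.368, 0.259 and 0.320 across genes, against -0.282 to -0.0602 for other pairs). With genes centred on group means, positive values for same-numbered pairs force negative ones among the others, so the latter are no separate contrast. Same-numbered libraries were treated as pairs in the block fit, although no label says what the number stands for. That pairing was read from the same data as the block fit. Replicates were checked for being distinct (chi-square per gene 43.3 to 352). Log2 CPM used a prior count of 2.

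The members and the gene lists were chosen with earlier results of these data known. The text names all members, Mn1, up to 4 called genes with the largest change per list (not all are printed) and the 10 genes most like the members, from those averaging 5 CPM or more. Others are said to be named after their values were seen. The scripts were tested on simulated counts. Lengths and coordinates come from GENCODE M21 and promoters from RefSeq.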

Additional observations from a re-analysis of the deposited data

How the results depend on the processing

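The direction of the tested proteases was the same in every alternative run, and the number called was not. It was 4 with all 6 libraries, 7 with DESeq2, 7 with the replicate block, between 0 and 8 when 1 library was left out and 8 without both libraries of replicate 2, where 8 includes Mcpt9, which passed the filter there only through the MN1-∆pQ libraries. The summed chymases lay between 4.49 and 5.55 (log2) when 1 library was left out, and lost their call in 5 of the 6 fits. The summed tryptases were called with DESeq2 (3.57), with the replicate block (3.18), without MN1-∆pQ replicate 2 and without both replicate 2 libraries (3.61), and lay between 2.94 and 4.11 in the leave-outs. Mn1 lay between 0.89 and 1.25 and lost its call in 5 of the 6. Of the 110 tested genes of the lists, 42 rose, Prss28, Alox15 and C1qa included, and 8 fell. The leave-outs gave 14 to 63 higher and 1 to 16 lower, and without both replicate 2 libraries 62 rose and 16 fell. The cause of these shifts was not tested. With an arm of 2 libraries, the spread was taken from both groups together. Over all genes, 2544 were called in the comparison, 4351 with DESeq2, 4545 with the replicate block, 6394 without MN1-∆pQ replicate 2, 5247 without both replicate 2 libraries and between 506 and 941 in the other leave-outs. Of 715 values for 55 named genes under the alternatives, 488 kept their direction and call, 191 lost the call and 34 gained it. In 2 the direction turned, both for Ctsg, which lay between -0.14 and 0.43 in the leave-outs, with -0.14 without MN1-∆pQ replicate 2, and at -0.03 without both replicate 2 libraries. Per base of transcript, the shares in the untransduced library were 1.47% for Mcpt1, 33.0% for Mcpt2, 20.4% for Mcpt4, 0.00669% for Mcpt9, 96.7% for Tpsb2 and 3.26% for Tpsab1, and Mcpt9 was at 0.00803% in MN1-∆pQ cells and 0.0403% in MN1 cells. Scaling by library totals moved the median log2 fold change of all genes by -0.20 and left 4 members called. Against the untransduced library it left 7 of 8 members at least 4-fold lower in MN1 cells.

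The thinnest counts behind a tested member were those of Mcpt1, at 14 to 33 in the MN1 libraries, and Mcpt9 had too few to pass the filter. The groups have 3 libraries each and the untransduced group 1.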
